A study of Mus musculus with 15 samples.

Results

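The proteasome is encoded by a family of genes whose symbols start with Psm, and 49 of the 17493 genes in the deposited count tables belong to it by name. They were chosen by symbol: Psma, Psmb, Psmc, Psmd, Psme, Psmf or Psmg followed by a number, with pseudogenes left out, a rule that uses no measured value. Of the 49 genes, 5 are the interferon-inducible Psmb8, Psmb9, Psmb10, Psme1 and Psme2, and 43 are other subunits, activators, inhibitors or assembly factors. Psmc3ip matched the name rule as well, although it encodes a meiotic recombination factor and no part of the proteasome. After the filter on low counts 47 of the 49 genes were tested, among 10831 genes in all, and those 47 hold 41 of the 43 others. Psma8, the alpha subunit of the testis (chromosome 18), had 1 count in DC 8 h replicate 1, 4 counts in DC 8 h replicate 3 and 0 elsewhere. Psmb11, the catalytic subunit of the thymic cortex (chromosome 14), had 0 to 4 counts per library. Neither was tested.

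RNA was measured in 15 bulk libraries of mouse CD8+ T cells from spleen and lymph nodes of female OT-I mice on a C57BL/6 background, in which a transgenic receptor (TcraTcrb) gives nearly all CD8+ T cells 1 specificity, for an ovalbumin peptide. All groups share this receptor and each group has 3 libraries. Unstimulated cells were taken at 0 h, and the other groups were stimulated for 8 h or 22 h, either with immunofilaments (IF), synthetic filaments carrying SIITFEKL-loaded MHC and interleukin-2, at 5 ng/ml, or with 20000 dendritic cells (DC) grown with Flt-3 ligand and pulsed with the same peptide, for 50000 T cells per well. The labels give no unstimulated group at 8 h or 22 h, so stimulus and time in culture cannot be told apart in any comparison with 0 h, and IF libraries also differ from DC libraries by the interleukin-2 on the filaments. Viable cells that carried CD8 and lacked CD103 were sorted before lysis. Sample titles end in Don1, Don2 or Don3 in every group, and the labels do not say what these numbers stand for. If they are not separate animals, the p-values measure only the spread between these libraries, which may then be technical.

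The 20S core of the proteasome is a barrel of outer alpha rings and inner beta rings, and 3 beta subunits, encoded by Psmb5, Psmb6 and Psmb7, cut proteins. Interferon gamma induces Psmb8, Psmb9 and Psmb10, whose products replace these 3 in newly built cores to form the immunoproteasome, and also Psme1 and Psme2, which form the 11S (PA28) activator. Lymphocytes make immunoproteasome without added interferon, and its peptides are loaded onto MHC class I. The 19S regulator, with Psmc ATPases and Psmd subunits, unfolds ubiquitinated substrates and feeds them into the core.

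Total counts ran from 2892874 to 19806730 per library, and the Psm genes took 0.463% to 0.917% of them. All 8 matched T cell markers had counts in every library. Their summed level was 8619 to 9359 CPM (normalised counts per 1000000 counts) at 0 h and 3880 to 6245 CPM in stimulated libraries, and CD4 was at 0 in 14 of 15 libraries. The 16 dendritic cell markers summed to 705 to 1573 CPM at 0 h, 240 to 482 CPM after 8 h of IF and 393 to 642 CPM after 22 h of IF. With DC the sums were 937 to 1301 CPM (8 h) and 495 to 692 CPM (22 h). Itgae, which encodes the CD103 removed by the sort, was at 9.84 to 59.8 CPM in every library. Zbtb46, which marks conventional dendritic cells, was at 0 in all unstimulated and IF 8 h libraries. Fscn1, a gene of mature dendritic cells, was at 126 to 168 CPM at DC 8 h and 72.9 to 94.8 CPM at DC 22 h, against at most 43.8 CPM in all other libraries. Summed levels of the other markers stayed low in every library, at 3.60 to 38.1 CPM for B cell, 0.664 to 13.4 CPM for NK cell and at most 9.08 CPM for neutrophil genes. In 3 groups libraries stood apart. IF 22 h replicates 2 and 3 had 0.179% and 0.146% of counts in mitochondrial ribosomal RNA, against 1.82% to 4.49% in the 13 others. DC 8 h replicate 2 and DC 22 h replicate 2 were each the highest library of their group for 44 of the 47 tested Psm genes, and for 36.1% and 39.2% of all tested genes. In bulk RNA fewer cells of a type and less RNA per cell cannot be told apart. Where these 4 libraries moved a count, a median or a named value most, the value without them is given. Each pair holds libraries of 1 stimulus only, so no comparison could be made within it.

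Psmb9 and Psmb8 lie on mouse chromosome 17 within the MHC, on either side of the peptide transporter gene Tap1. In GENCODE vM21 (GRCm38) Psmb9 spans chr17:34181987-34187764 on the minus strand, Tap1 chr17:34187553-34197225 on the plus strand and Psmb8 chr17:34197721-34201454 on the plus strand. Psmb9 and Tap1 share 212 exonic bases on opposite strands, and Psmb8 shares 498 with the antisense gene Gm20496. Reads of these partners cannot be told apart where the counting did not use strand, which is not given in the sources used here. Psmb10 lies alone at chr8:105935735-105938444 on the minus strand. Psme1 (chr14:55578123-55581529, plus strand) and Psme2 (chr14:55587441-55591113, minus strand) are near neighbours, and Psme1 shares 14 exonic bases with Emc9.

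Promoters are shown for inducible Psmb10 and Psme2, which moved in the comparisons described here, and for constitutive Psmb5 and Psmb6, so that both kinds can be read side by side. The sequences come from RefSeq (GRCm38.p6), run 5′ to 3′ on the gene's strand from 250 bases before the start, and stop before the first annotated exon. Capitals mark a match of the antioxidant response element core TGACNNNGC, the letters bound by Nfe2l1 and Nfe2l2, regulators of constitutive proteasome genes.
Psmb10 (chr8:105938445-105938642, minus strand): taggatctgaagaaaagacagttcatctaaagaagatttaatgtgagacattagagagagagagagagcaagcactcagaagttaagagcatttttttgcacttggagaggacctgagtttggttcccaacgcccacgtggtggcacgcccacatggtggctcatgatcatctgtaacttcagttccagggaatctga
Psme2 (chr14:55591114-55591351, minus strand): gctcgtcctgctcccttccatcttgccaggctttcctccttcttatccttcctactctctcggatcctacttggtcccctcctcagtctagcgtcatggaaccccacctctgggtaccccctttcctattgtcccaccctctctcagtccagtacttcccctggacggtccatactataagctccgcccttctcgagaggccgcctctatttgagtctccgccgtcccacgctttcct
Psmb5 (chr14:54618023-54618245, minus strand): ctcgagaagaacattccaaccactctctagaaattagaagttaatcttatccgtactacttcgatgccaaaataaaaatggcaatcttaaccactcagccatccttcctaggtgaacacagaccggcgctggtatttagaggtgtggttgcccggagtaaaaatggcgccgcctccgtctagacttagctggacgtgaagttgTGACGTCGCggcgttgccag
Psmb6 (chr11:70525107-70525356, plus strand): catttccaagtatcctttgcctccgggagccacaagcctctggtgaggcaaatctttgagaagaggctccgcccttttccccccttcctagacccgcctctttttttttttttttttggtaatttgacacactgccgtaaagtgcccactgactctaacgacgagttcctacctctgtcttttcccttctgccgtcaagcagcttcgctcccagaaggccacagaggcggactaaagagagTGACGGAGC

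Both strands of the 250 bases before the start were searched, here called a window, and 41 of the 49 genes had one. TGACNNNGC was found for Psmb5, Psmb6, Psmc6, Psmd9 and Psmd12, 5 of 41, against 10.2% of all 32851 windows. The gamma-activated site TTCNNNGAA, an element of interferon gamma responses, was found for Psmb8 and Psmg1, against 7.02% of all windows. The core of the interferon-stimulated response element, bound by IRF factors and searched as GAAA, any 2 bases and GAAA again, was found for Psmb3, Psmd4 and Psmd9, against 2.98%, and Psmd9 was the only one of these genes to hold 2 of the 3 motifs. CCAAT was found for 15 of 41 genes, Psmb9 among them, against 33.8%. The windows of Psmb10 and Psme2 held none of the 4 motifs, and those of Psmb8 and Psmb9 lie in annotated exons and are not printed. A match describes letters in a window and does not show binding.

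The inducible catalytic genes were at their lowest after 22 h with immunofilaments, and 2 of them, Psmb9 and Psmb10, were called lower there than in unstimulated cells. Psmb9, which replaces Psmb6 in the core, was at 41.5, 51.7 and 40.5 CPM in the unstimulated libraries and at 24.4, 25.8 and 24.3 CPM at IF 22 h. The remaining groups were at 46.6, 35.5 and 52.5 CPM (IF 8 h), 45.3, 58.6 and 42.9 CPM (DC 8 h) and 53.95, 68.1 and 41.96 CPM (DC 22 h). All 3 IF 22 h libraries lay below the 12 others, and the remaining 4 groups overlapped one another. By edgeR's quasi-likelihood test (two-sided, Benjamini-Hochberg adjustment over 10831 genes) Psmb9 fell by 0.84 ± 0.21 (log2 fold change ± SE, adjusted p 0.0277) against unstimulated cells, a fold of 0.557.

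Psmb10, which replaces Psmb7, was at 151, 158 and 139 CPM in unstimulated libraries and at 68.9, 110 and 89.9 CPM at IF 22 h. It was at 96.5, 114 and 120 CPM at IF 8 h, 108, 153 and 145 CPM at DC 8 h, and 138, 145 and 150 CPM (149.5) at DC 22 h. The 6 IF libraries all lay below the 6 libraries of the 0 h and DC 22 h groups, while DC 8 h spanned both ranges. Psmb10 fell by 0.74 ± 0.18 (adjusted p 0.0241, edgeR) at IF 22 h. At IF 8 h the value was −0.44 ± 0.18, which missed the threshold (adjusted p 0.155).

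Psmb8, which replaces Psmb5, was at 349, 381 and 338 CPM (337.5) at 0 h and at 231, 273 and 264 CPM at IF 22 h. The other groups were at 295, 273 and 338 CPM (IF 8 h), 257, 382 and 294 CPM (DC 8 h) and 326, 385 and 332 CPM (DC 22 h). IF 22 h lay below 0 h and DC 22 h without overlap and overlapped both 8 h groups. Against 0 h its log2 fold change at IF 22 h was −0.48 ± 0.16, which missed the threshold by edgeR (adjusted p 0.0945).

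The inducible activator genes Psme1 and Psme2 were lowest after 22 h of IF, and Psme2 was called in 3 comparisons: higher at DC 8 h than at 0 h, and lower at IF 22 h than at IF 8 h and at DC 22 h. Psme2, the beta subunit of the 11S activator, was at 198, 218 and 214 CPM at 0 h. It was at 332, 513 and 331 CPM at DC 8 h and at 330, 264 and 340 CPM at IF 8 h, and all 6 of these libraries lay above 0 h. At IF 22 h it was at 148, 172 and 153 CPM, below all other libraries, and at DC 22 h at 269, 325 and 222 CPM. Psme2 rose by 0.90 ± 0.19 at DC 8 h (adjusted p 0.00809, edgeR), a fold of 1.87, while the value of 0.57 ± 0.19 at IF 8 h missed the threshold (adjusted p 0.0808). Between 8 h and 22 h with immunofilaments it fell by 0.98 ± 0.19 (adjusted p 0.0193). Against 0 h its value at IF 22 h was −0.41 ± 0.19 (adjusted p 0.229). The rise at DC 8 h held its call without each of the 6 libraries in turn (0.66 to 1.02). Dendritic cell markers in those libraries summed to 937 to 1301 CPM, within the 705 to 1573 CPM of 0 h, while Fscn1 was at 126 to 168 CPM against 0 to 6.75 CPM. T cell markers summed to 3880 to 4671 CPM, against at least 8619 CPM at 0 h. The part of these genes in the rise was not tested.

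Psme1, the alpha subunit of the same activator, was at 443, 432 and 433 CPM (432.5) at 0 h, 533, 371 and 501 CPM at IF 8 h and 480, 659 and 481 CPM at DC 8 h. At 22 h it was at 267, 335 and 336 CPM with IF, below all other libraries, and at 458, 481 and 415 CPM with DC. With all 15 libraries Psme1 was not called in any comparison by edgeR, and its value at IF 22 h against 0 h was −0.48 ± 0.17 (adjusted p 0.110).

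**Figure D1:**
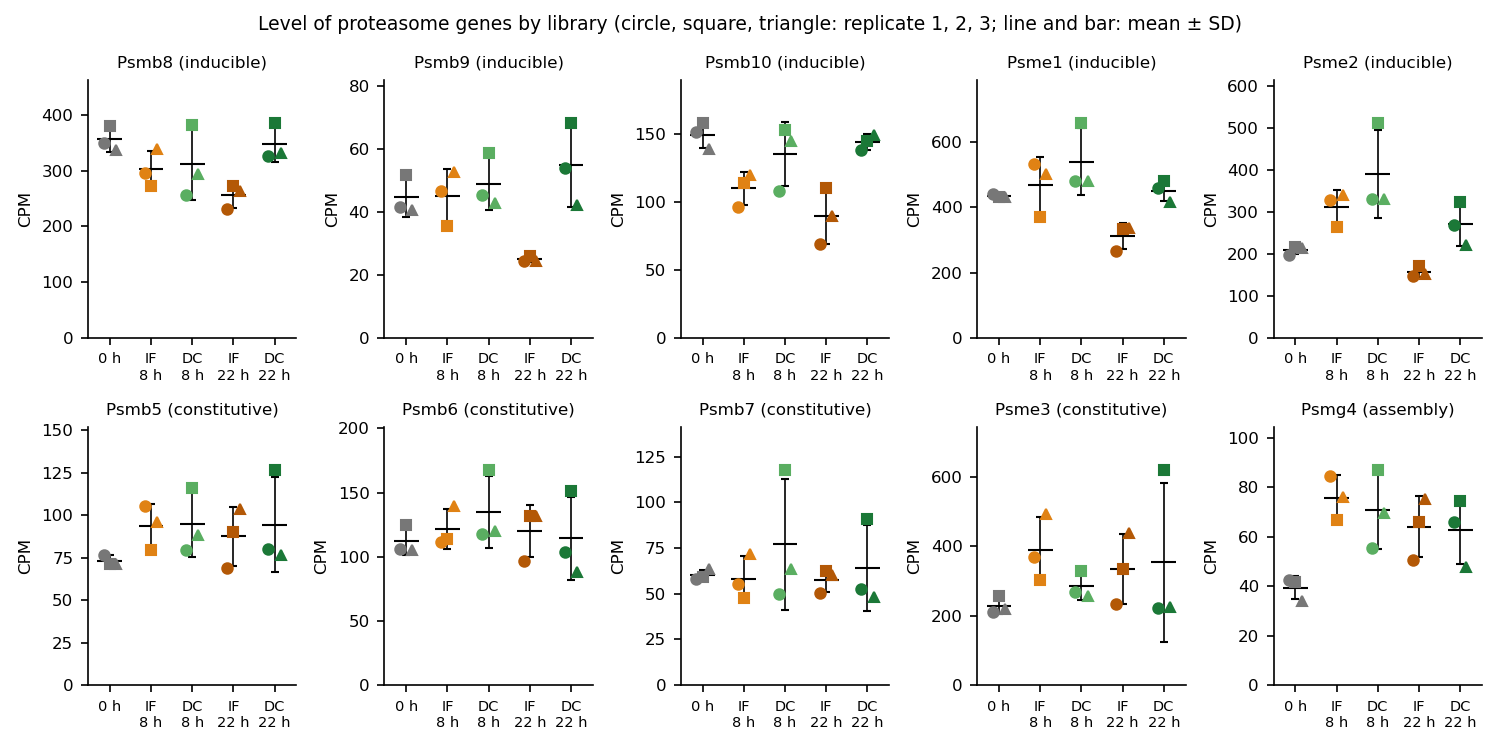
Level of 10 proteasome genes in counts per 1000000 counts (CPM, linear axis from 0) in each of the 15 libraries, by group. Points are libraries, with circle, square and triangle for replicates 1, 2 and 3, and lines and bars are mean ± SD (n = 3). The IF 22 h points of Psmb9 (24.3 to 25.8 CPM) and Psme2 (148 to 172 CPM) lie below all other points of those genes, and DC 22 h replicate 2 stands far above its group for Psme3 (620 CPM).

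As a group, the 5 inducible genes lay below both unstimulated and DC 22 h libraries after 22 h of IF. Against unstimulated cells all 5 were below without overlap, where 14.7% of all tested genes were, and their median log2 fold change was −0.48 against 0.01 over all genes. By edgeR 2 of the 5 were called, both lower, and these were the only calls among the 47 tested Psm genes, against 6.08% of all genes called in either direction. All 5 had an unadjusted p under 0.05, as did 20.5% of all genes. Scaling by library size alone moved the all-gene median in this comparison from 0.01 to 0.22. On that scale all 5 genes still had values below 0, with a median of −0.28, but 2 other Psm genes were called higher and 0 inducible genes lower, against 7.74% of all genes called. Psmb9 was then at −0.64 (adjusted p 0.0824) and Psmb10 at −0.55 (adjusted p 0.0680), so their calls hold relative to the TMM scale. Both calls were also lost when single libraries were left out. Psmb9 was called only without IF 22 h replicate 1, and Psmb10 only without IF 22 h replicate 2, among the 6 libraries left out in turn, with adjusted p-values of 0.0528 to 0.126 in the other fits. Replicate 1, whose mitochondrial ribosomal RNA was like that of the other groups, was low for all 5 genes. This library was also the lowest of its group for 35 of the 47 tested Psm genes. With it as the only IF 22 h library the median of the 5 was −0.71, and none of the 5 was called (Psmb9 −0.87, adjusted p 0.350, Psmb10 −1.12, adjusted p 0.0561). Other cells' genes and T cell genes moved with this comparison: dendritic cell markers summed to 393 to 642 CPM against 705 to 1573 CPM at 0 h, and T cell markers to at most 6245 CPM against at least 8619 CPM. Their part in the result was not tested. DESeq2 called 6 Psm genes at IF 22 h, 1 higher and 5 lower, against 9.84% of all genes. Fits with only the groups compared, or without replicates 2 of DC 8 h and DC 22 h, also called 6, with 2 higher and 4 lower, against 9.93% and 10.2% of all genes. Without those replicates the 4 were Psmb8 (adjusted p 0.0217), Psmb9, Psmb10 and Psme1 (adjusted p 0.0398), and Psmc2 and Psmg4 were higher.

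Between the stimuli at 22 h the inducible genes were again all lower with immunofilaments, without overlap for 5 of 5, where 9.11% of all tested genes were lower without overlap. Psmb9 was lower by a log2 fold change of −1.14 ± 0.21 (adjusted p 0.00804, edgeR) and Psme2 by −0.78 ± 0.19 (adjusted p 0.0369). These 2 were the only Psm genes called, 2 of 47 against 2.43% of all genes. Psmb10 missed the threshold at −0.69 ± 0.18 (adjusted p 0.0581, and −1.07 with IF 22 h replicate 1 alone), as did Psme1 at −0.53 ± 0.17 (adjusted p 0.116) and Psmb8 at −0.44 ± 0.16 (adjusted p 0.177). With the replicate number as a block Psmb10 passed as well, and 3 inducible genes were called lower, against 2.26% of all genes. The median of the 5 was −0.69, against −0.02 over all genes and −0.11 over the 41 other proteasome genes tested. Values above 0 were found for 0 of the 5 and 10 of the 41, against 48.0% of all genes. Without replicates 2 of both DC groups the median of the 5 was −0.65 and 2 genes were called, against 3.11% of all genes, whereas the median of the 41 others turned to 0.10 (0.095), with 29 of 41 above 0. With IF 22 h replicate 1 alone the median of the 41 was −0.33, with 2 of 41 above 0. Psmb9 lost its call only without IF 22 h replicate 3 (adjusted p 0.0515) among the single libraries left out. Psme2 kept its call only without DC 22 h replicate 3, with adjusted p-values of 0.0509 to 0.157 in the other 5 fits. With only these 2 groups in the fit no Psm gene was called (Psmb9 adjusted p 0.0651, Psme2 adjusted p 0.123), nor with IF 22 h replicate 1 alone (Psmb9 −1.16, adjusted p 0.369). Dendritic cell genes moved with this comparison in part: Fscn1 was at 5.83 to 43.8 CPM with IF and 72.9 to 94.8 CPM with DC, while the summed 16 markers overlapped. Summed markers of other cells were higher with IF without overlap, at 5337 to 6245 against 4189 to 5334 CPM for T cells, with 4 of 8 genes called higher, 18.8 to 38.1 against 5.20 to 13.9 CPM for B cells and 11.8 to 13.4 against 0.664 to 6.49 CPM for NK cells. Their part in the result was not tested.

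Other interferon-responsive genes moved in the same comparisons. Of 30 interferon-stimulated genes, all tested, 17 were called lower and 0 higher at IF 22 h against 0 h (6.08% of all genes were called), with Rtp4 (−3.29 ± 0.27), Mx1 (−3.01 ± 0.32), Isg20, Oasl1 and Irf7 at the smallest p. Their median was −1.37, and their summed level was 1304 to 1520 CPM at IF 22 h, 1962 to 2396 CPM at 0 h and 2624 to 5244 CPM at DC 22 h. Between IF and DC at 22 h 19 of 30 were lower and 0 higher, against 2.43% of all genes called (13 without replicates 2 of the DC groups, against 3.11%). With IF 22 h replicate 1 alone the counts were 10 lower against 0 h and 1 against DC (0.833% and 0.0673% of all genes), at medians of −1.48 and −1.84. At 8 h the list divided: against 0 h 5 genes rose and 7 fell with IF (7.76% of all genes called; 9 and 7 without replicates 2 of the DC groups, where 12.7% were), and 5 rose and 0 fell with DC (6.82%). Gbp2, an interferon-inducible GTPase, rose by 3.10 ± 0.48 with IF (adjusted p 0.000833, edgeR) and by 3.02 ± 0.48 with DC (adjusted p 0.00115), a fold of 8.11. Without replicates 2 of the DC groups the DC value was 2.20 ± 0.24, a fold of 4.59, and 2 of the 30 genes were called at DC 8 h, both higher, against 6.35% of all genes. Rtp4 fell by 1.60 ± 0.26 at IF 8 h. The 5 inducible proteasome genes are themselves interferon-stimulated genes and are not counted in this list.

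Genes of MHC class I presentation were also compared, 12 in all, among them Nlrc5, a transcriptional activator of class I genes. At IF 22 h 2 of them fell against 0 h (6.08% of all genes called), B2m, the class I light chain (−0.43 ± 0.10, adjusted p 0.0204, edgeR), and the heavy chain H2-D1 (−0.63 ± 0.14, adjusted p 0.0115). Between 8 h and 22 h of IF 5 fell, namely Tapbp, Nlrc5, Tap1, B2m and H2-K1 (1.12% of all genes called). Without replicates 2 of the DC groups 5 fell against 0 h as well, against 10.2% of all genes. With IF 22 h replicate 1 alone 0 of the 12 were called in either comparison, at medians of −0.50 (−0.497) and −0.55. Between 8 h and 22 h of IF, with all 15 libraries in the fit, Tap1, the neighbour of Psmb9 and Psmb8, fell by 0.82 ± 0.18 (adjusted p 0.0432, edgeR). Psmb9 was at −0.86 ± 0.22 in that comparison, just over the threshold (adjusted p 0.0671). At DC 22 h 1 of 12 fell (7.76% of all genes called), H2-D1, a call lost without replicates 2 of the DC groups (adjusted p 0.121), and at 8 h 0 were called with either stimulus by edgeR, against 7.76% and 6.82% of all genes. There 1 and 2 genes had an unadjusted p under 0.05 for IF and DC, against 22.9% and 20.9% of all genes. Between IF and DC at 22 h 0 of 12 were called by edgeR, against 2.43% of all genes. There 5 of 12 had an unadjusted p under 0.05, all lower with IF, against 15.3% of all genes in either direction. The median of the 12 was −0.26, against −0.02 over all genes, with 11 of 12 below 0.

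**Figure D2:**
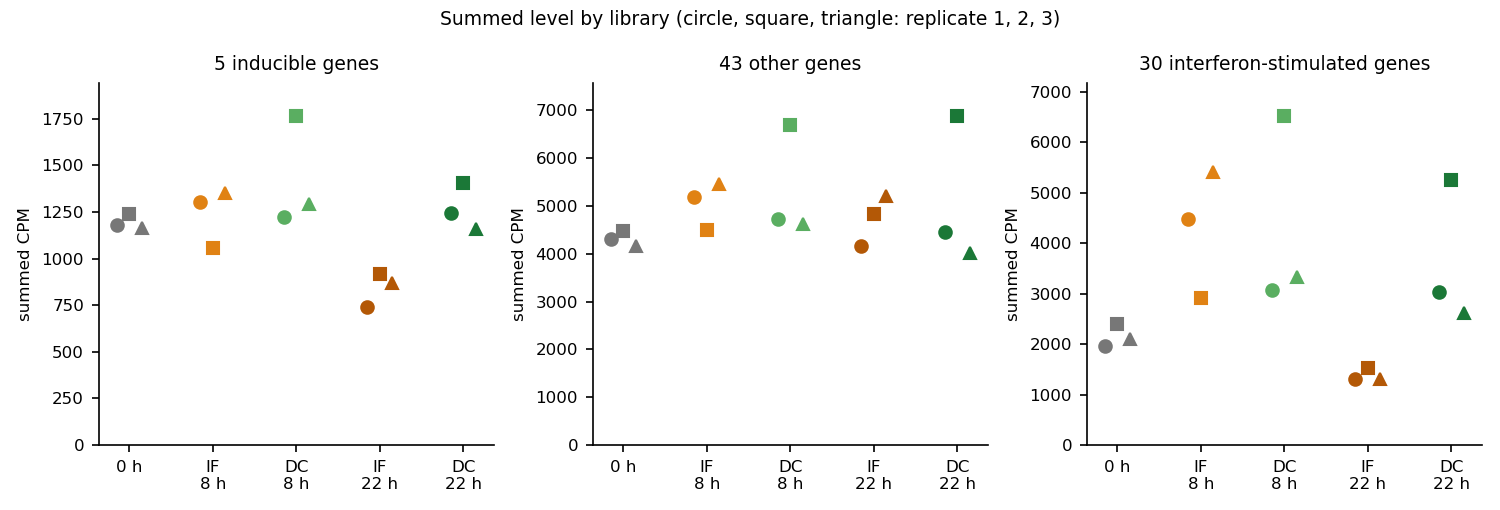
Summed level in counts per 1000000 counts (CPM, linear axes from 0) of the 5 inducible genes, the 43 other proteasome genes and 30 interferon-stimulated genes in each library, with circle, square and triangle for replicates 1, 2 and 3. The IF 22 h libraries are lowest for the inducible genes (739 to 916 CPM) and the interferon-stimulated genes, and lie within the range of the other groups for the 43 other genes, where replicates 2 of DC 8 h (6700 CPM) and DC 22 h (6884 CPM) are highest.

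None of the constitutive counterparts of the inducible genes was called in any comparison by edgeR. Psmb5, which carries the chymotrypsin-like activity, was at 76.8, 71.0 and 71.5 CPM at 0 h, 105, 79.2 and 96.2 CPM at IF 8 h and 79.6, 116 and 88.1 CPM at DC 8 h. At 22 h it was at 68.9, 89.9 and 104 CPM (103.5) with IF and 79.9, 126 and 76.2 CPM with DC. Both 8 h groups lay above 0 h without overlap, at log2 fold changes of 0.36 ± 0.22 and 0.37 ± 0.22 (adjusted p 0.358 and 0.357), the second of which was 0.19 without replicates 2 of the DC groups. Psmb6, with the caspase-like activity, had group means of 112 ± 11.1 CPM (SD, n = 3) at 0 h and 114 to 135 CPM in the 4 stimulated groups, and all groups overlapped. Psmb7, with the trypsin-like activity, had means of 57.7 to 77.0 CPM, with the widest spread at DC 8 h (50.0, 117.5 and 63.4 CPM). Psmb5 shares 109 exonic bases with Mir686 on the same strand and Psmb7 405 with Nek6 on the opposite strand, so some of their reads may belong to those genes.

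Psme3, the nuclear activator that is not induced by interferon gamma, was at 211, 258 and 219 CPM at 0 h and 370, 304 and 493 CPM (493.5) at IF 8 h. It was at 267, 330 and 258 CPM (257.5) at DC 8 h, 235, 334 and 437 CPM at IF 22 h, and 221, 620 and 224 CPM at DC 22 h. Only IF 8 h lay above 0 h without overlap, by 0.76 ± 0.33, which missed the threshold (adjusted p 0.177, edgeR). The mean at DC 22 h, 355 ± 230 CPM, rests on replicate 2, and the log2 fold change against 0 h was 0.63 with replicates 2 of the DC groups and −0.02 without them.

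Within a library, the ratio of an inducible to its constitutive gene needs no scaling between libraries, and 10 such tests were made: 5 pairs, each for the 12 stimulated against the 3 unstimulated libraries and for IF against DC within time. These are ratios of read counts and are compared only between groups. Psmb8 counts were 4.55, 5.36 and 4.72 times those of Psmb5 at 0 h. With IF the ratio was 2.81 to 3.52 (3.515) at 8 h and 2.55 to 3.35 at 22 h. With DC it was 3.23 (3.225) to 3.34 at 8 h and 3.05 to 4.35 at 22 h, so every stimulated library lay below every unstimulated one. The difference of mean log2 ratios was −0.56 (exact two-sided permutation test, p = 0.0022, the smallest that 455 assignments can give, adjusted p 0.022 over the 10 tests). Without any 1 of the unstimulated libraries fewer assignments are possible and the adjusted p was 0.0549, at differences of −0.61 to −0.49.

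The other pairs did not pass. Psmb9 over Psmb6 was 0.385 to 0.414 at 0 h, 0.452 to 0.521 at DC 22 h and 0.184 to 0.253 at IF 22 h, the lowest values of the 15 libraries. Its IF-DC difference over both times was −0.60 (exact permutation p = 0.055, adjusted 0.138). Psme2 over Psme3 differed by −0.78 between IF and DC (exact permutation p = 0.01, adjusted 0.050, on the threshold and not under it), with ratios of 0.350 to 0.629 at IF 22 h and 0.524 to 1.22 at DC 22 h. Without DC 22 h replicate 2, in which Psme3 stood far above its group, this difference was −0.96 and that of Psme1 over Psme3 −0.84, each with an adjusted exact permutation p of 0.0167. The adjusted p-values of the remaining 7 tests were 0.117 to 0.695, with Psme1 over Psme3 between IF and DC the smallest (−0.61).

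**Figure D3:**
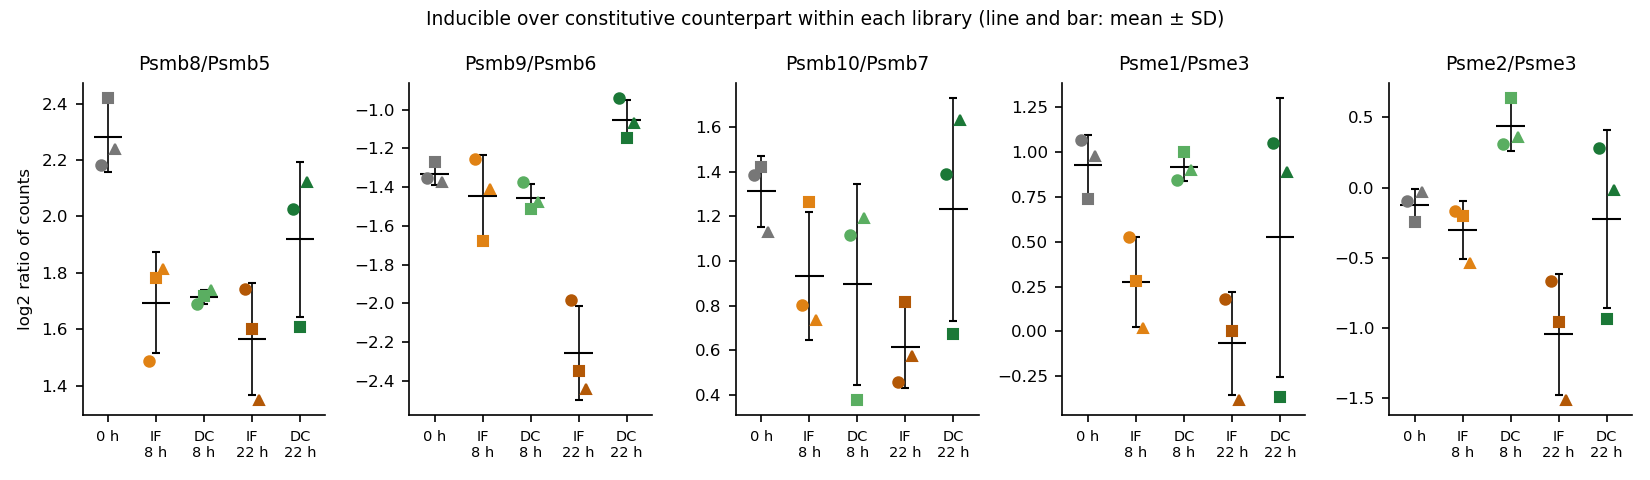
The log2 ratio of counts of each inducible gene to its constitutive counterpart in each library, with circle, square and triangle for replicates 1, 2 and 3, and mean ± SD (n = 3). Axes do not start at 0. All stimulated libraries lie below the unstimulated ones for Psmb8/Psmb5 (2.18 or more at 0 h, 2.12 or less after stimulation), and the IF 22 h libraries are lowest for Psmb9/Psmb6 (−2.44 to −1.98).

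The other 41 proteasome genes had small fold changes, mostly above 0. Their median log2 fold changes against 0 h were 0.20 and 0.37 after 8 h of IF and DC, and 0.11 and 0.34 after 22 h, against 0.01 to 0.04 over all genes. In the same order, values above 0 were found for 30, 35, 28 and 36 of the 41 genes, where 51.3%, 53.0%, 51.0% and 52.5% of all tested genes lay above 0. Without overlap 11 of the 41 were higher and 0 lower at IF 8 h, against 14.2% and 16.4% of all genes, and 15 higher and 1 lower at DC 8 h, against 13.0% and 15.2%. After 22 h of IF 9 were higher and 2 lower (15.7% and 14.7% of all genes), and after 22 h of DC 6 were higher and 1 lower (12.8% and 14.2%). The same 0 h libraries are the reference in all 4 comparisons. In the DC groups these values rest largely on replicates 2. Without those 2 libraries the medians were 0.16 at DC 8 h and 0.05 at DC 22 h, and 29 and 25 of 41 genes lay above 0. With replicate 1 as the only IF 22 h library the median there was 0.00 (0.002), with 21 of 41 above 0, and without that replicate it was 0.20. When only library size was used for scaling, the medians of the 41 genes were 0.44, 0.64, 0.32 and 0.67, and those of all genes 0.26, 0.30, 0.22 and 0.37.

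A single gene among the 41, Psmg4, was called against 0 h with all 15 libraries in the fit. It encodes a chaperone of 20S assembly and lies at chr13:34162964-34178173 on the plus strand. Psmg4 was at 42.4, 41.6 and 34.0 CPM at 0 h, 84.7, 66.6 and 76.1 CPM at IF 8 h and 55.6, 86.9 and 69.6 CPM at DC 8 h. At 22 h it was at 50.7, 66.1 and 75.2 CPM with IF and at 65.8, 74.3 and 47.9 CPM with DC. All 12 stimulated libraries lay above the 3 unstimulated ones. After 8 h of IF it rose by 0.95 ± 0.22 (adjusted p 0.0154, edgeR), a fold of 1.93, and after 8 h of DC by 0.84 ± 0.22 (adjusted p 0.0264). Its values at 22 h, 0.70 ± 0.22 with IF and 0.67 ± 0.22 with DC, missed the threshold (adjusted p 0.0685 and 0.0730), though the IF value was called without replicates 2 of the DC groups (0.71, adjusted p 0.0224) and was 0.37 with IF 22 h replicate 1 alone. In the IF 8 h comparison the call was lost without IF 8 h replicate 1 or 0 h replicate 3 (adjusted p 0.0688 and 0.0746). For DC 8 h it held only without DC 8 h replicate 1 among the 6 libraries left out in turn (0.0529 to 0.130 in the other fits), and without replicates 2 of both DC groups the value was 0.66 (adjusted p 0.0721). The other assembly chaperones, Psmg1, Psmg2 and Psmg3, had values above 0 in all 4 comparisons with 0 h. They were at 0.20 to 0.46 at IF 8 h and at 0.40 to 0.62 at DC 22 h, with none called by edgeR. Without replicates 2 of the DC groups 2 and 3 of the 4 chaperones lay above 0 after 8 h and 22 h of DC, and with IF 22 h replicate 1 alone 2 of 4 did there.

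With all 15 libraries in the fit and TMM scaling, the share of the 47 tested genes called against 0 h was below that of all genes, which did not hold in every other fit. At IF 8 h 1 gene was called by edgeR (Psmg4), against 7.76% of all genes. At DC 8 h the 2 called genes were Psme2 and Psmg4, against 6.82%. At DC 22 h edgeR called 0 of 47, against 7.76% of all genes, with 9 at an unadjusted p under 0.05 (22.2% of all genes) and 3 called by DESeq2 (11.7%). When only library size was used, 17 of 47 were called at DC 22 h, all higher, against 14.6% of all genes in that fit. At DC 8 h 10 were called on that scale, against 9.96%. At IF 8 h the count was 7 with only those 2 groups in the fit, against 13.7% of all genes, and 6 without replicates 2 of the DC groups, against 12.7%, all higher.

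By role, the outer alpha ring and the 20S assembly chaperones had values mostly or all above 0. Psma1 to Psma7 all had values above 0 in 3 of the 4 comparisons with 0 h (0.19 to 0.55 for IF 8 h, 0.39 to 0.66 for DC 8 h and 0.28 to 0.49 for DC 22 h), and 6 of the 7 did in the fourth, with IF at 22 h. The DC values rest largely on replicates 2, without which the 7 genes lay at 0.10 to 0.43 after 8 h and 0.01 to 0.18 after 22 h. With IF 22 h replicate 1 alone 4 of the 7 lay above 0 there (−0.155 to 0.08). Psma4 was the largest at 8 h, at 151 ± 13.4 CPM (SD, n = 3) at 0 h, 221 ± 33.0 CPM (220.5) at IF 8 h and 239 ± 60.8 CPM at DC 8 h, and missed the threshold (adjusted p 0.15 and 0.086 by edgeR), with a DC 8 h value of 0.66 that was 0.43 without replicates 2. Psma5 had a value below 0 at IF 22 h (−0.22), with 102, 91.1 and 99.8 CPM against 108, 137 and 96.8 CPM at 0 h and 135, 239 and 107 CPM (106.5) at DC 22 h, a log2 difference of −0.71 between the stimuli (adjusted p 0.18), and of −0.315 without replicates 2 of the DC groups (adjusted p 0.371). The structural beta subunits Psmb1 to Psmb4 stayed between −0.18 and 0.37 in all 4 comparisons with 0 h, and between −0.22 and 0.00 (0.004) in the DC comparisons without replicates 2.

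In the 19S base, the ATPase genes Psmc1 to Psmc6 had medians of 0.22 and 0.42 after 8 h of IF and DC and of 0.06 and 0.38 after 22 h, and the DC medians were 0.26 and 0.13 without replicates 2. Psmc2 had the largest fold change among them at DC 22 h, at 92.0, 151 and 90.9 CPM against 68.7, 73.2 and 60.1 CPM (60.05) at 0 h, above without overlap and short of the threshold (0.72, adjusted p 0.074 by edgeR). Its value there was 0.46 without replicates 2 of the DC groups (adjusted p 0.134). Psmc3 lay below 0 in all 4 comparisons (−0.24 to −0.04). Among the 11 non-ATPase genes Psmd1, the largest scaffold subunit, reached 0.68 after 8 h of IF (adjusted p 0.19, edgeR) and 0.715 after 8 h of DC (adjusted p 0.18, and 0.48 without replicates 2 of the DC groups), and its IF 22 h libraries were split: 153 CPM in replicate 1 and 83.3 and 92.3 CPM in the replicates with low mitochondrial ribosomal RNA. Psmd11 was split in the same way (83.1 against 56.3 and 55.5 CPM). Psmd1 shares 301 exonic bases with Gm21972 on the same strand, so its counts are uncertain. Psmd4, a ubiquitin receptor of the 19S regulator, had the lowest value of all Psm genes at DC 22 h, −0.34, at 58.8, 76.1 and 69.5 CPM against 79.4, 86.2 and 93.3 CPM at 0 h, below without overlap, with an adjusted p of 0.21. It was also below 0 h without overlap at IF 22 h, at 59.9 to 67.0 CPM (−0.43), and was not called there.

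None of the remaining regulators was called. Psme4, the PA200 activator, was at 26.9 ± 3.02 CPM (SD, n = 3) at 0 h and 27.4 to 33.3 CPM in the stimulated groups. Psmf1, an inhibitor of the 20S core, had the lowest value at DC 8 h (−0.26 log2, adjusted p 0.43), with 69.2 ± 6.84 CPM against 82.9 ± 9.32 CPM. The 19S assembly genes Psmd5, Psmd9 and Psmd10 lay between −0.11 and 0.47 against 0 h. Psmd10 was above 0 h without overlap at IF 22 h, at 27.6 to 34.6 CPM against 19.8 to 25.0 CPM (0.47, adjusted p 0.214, edgeR, and 0.26 with replicate 1 alone), and Psmd5 at DC 22 h, at 51.7 to 62.3 CPM against 37.2 to 44.0 CPM (0.43, adjusted p 0.197). Psmc3ip, the gene with no proteasome role, had the largest fold changes of all 47 in several comparisons and very few reads, with 0 to 16.9 CPM per library. Its log2 fold change was −1.42 ± 0.85 at IF 8 h and 2.05 ± 0.71 at DC 22 h, and it was called in no comparison by edgeR (adjusted p 0.343 and 0.0936).

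**Figure D4:**
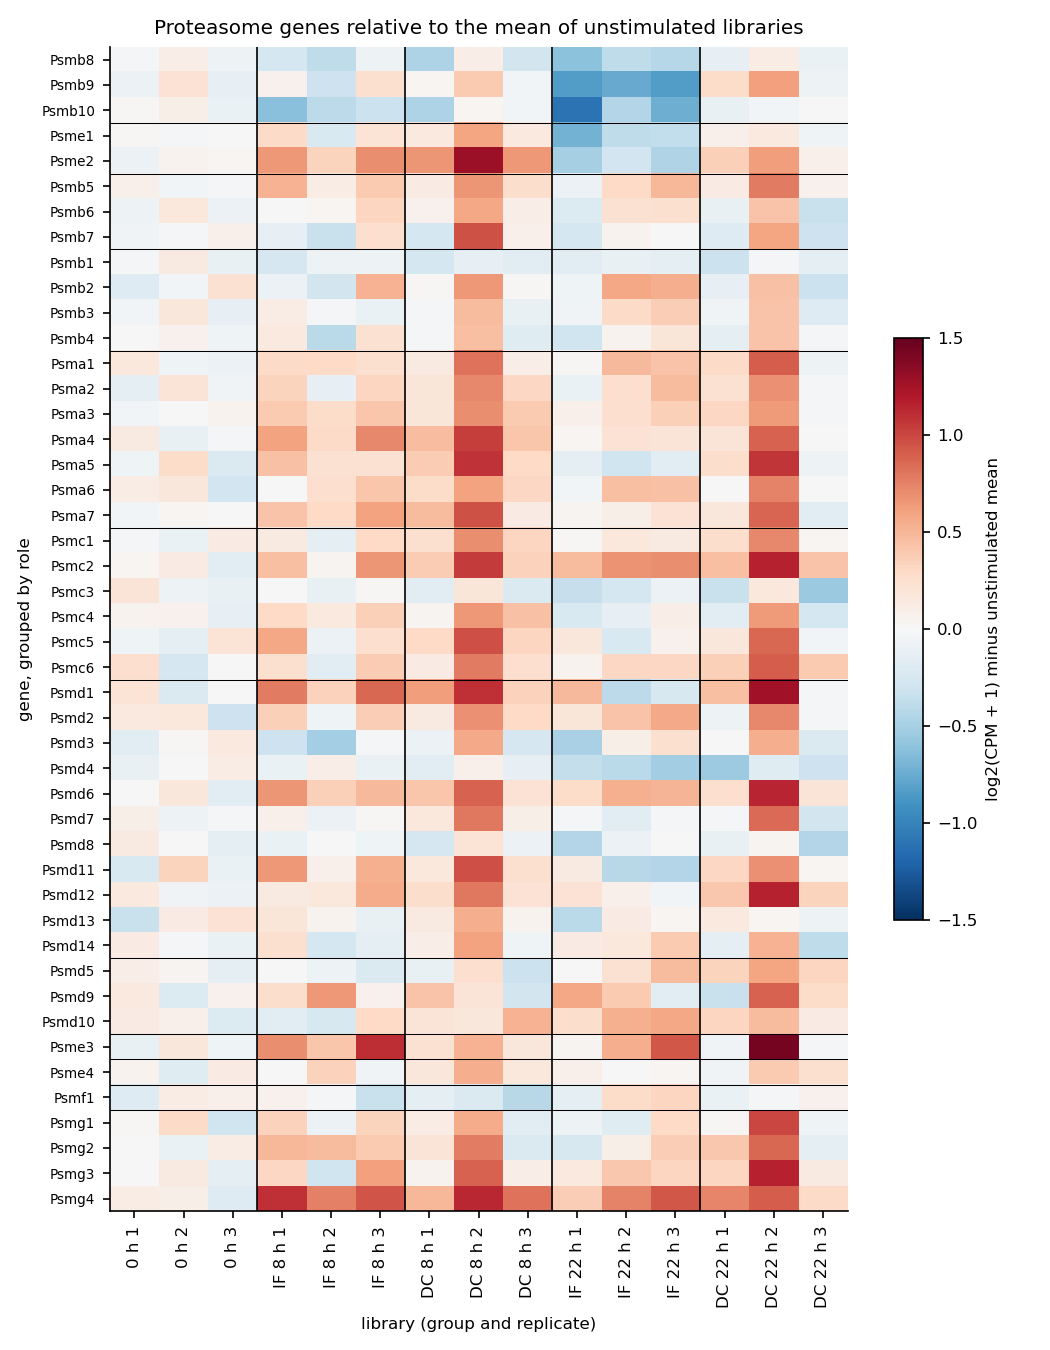
Level of the 46 tested proteasome genes in each library as log2(CPM + 1) minus the mean of the 3 unstimulated libraries, grouped by role from the inducible genes at the top to the assembly chaperones at the bottom (red higher, blue lower). The 5 inducible rows are blue in all 3 IF 22 h libraries, and replicates 2 of DC 8 h and DC 22 h are red in nearly all rows.

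At 8 h the stimuli were not told apart at any proteasome gene. Between IF and DC at 8 h edgeR called 0 of 47 genes, against 0.665% of all genes, with 0 at an unadjusted p under 0.05 (8.27% of all genes) and 0 called by DESeq2 (1.80%). All 5 inducible genes had values below 0, from −0.33 (Psme2) to −0.04 (Psmb8), where 48.9% of all genes lay above 0, and the ranges of both groups overlapped for each of them. Over all genes 7.70% were lower with IF without overlap. Without replicates 2 of the DC groups their median moved from −0.21 to −0.03 and that of the 41 others from −0.13 to 0.08. Psme3 had the highest value, 0.45 ± 0.33, and Psmc3ip the lowest, −1.59 ± 0.83.

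An interaction term asked if IF and DC differed more at 22 h than at 8 h. No Psm gene passed by edgeR, and neither did any other gene (0.00% of 10831), so the larger difference of the inducible genes at 22 h is not shown to differ from that at 8 h. Psmb9 had the smallest p of the family, with an interaction of −1.02 ± 0.30 (unadjusted p 0.00366, adjusted p 0.442, edgeR), and was the only 1 of 47 genes with an unadjusted p under 0.05, against 7.92% of all genes. DESeq2 called 0 Psm genes and 40 genes in all. All 5 inducible genes had values below 0, with a median of −0.40, where 50.4% of all genes lay above 0.

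Over time, IF 22 h was compared with IF 8 h and DC 22 h with DC 8 h. With immunofilaments Psme2 was the only called gene of 47, against 1.12% of all genes, and the 5 inducible genes had a median of −0.58, with 3 of them lower without overlap (9.37% of all genes). The call of Psme2 was lost without IF 22 h replicate 2 or 3 or IF 8 h replicate 1 or 3 (adjusted p 0.0714 to 0.109), and with IF 22 h replicate 1 alone (−1.07, adjusted p 0.522). Psme1 was at −0.58 ± 0.17 (adjusted p 0.117). The median of the 41 others was −0.07, with 14 of 41 above 0 against 49.2% of all genes. Without IF 22 h replicate 1 it was 0.01 with 23 of 41 above 0, and with that replicate alone −0.24 with 5 of 41. With dendritic cells edgeR called 0 of 47 genes, against 0.480% of all genes, with 3 at an unadjusted p under 0.05 (9.03% of all genes) and 0 called by DESeq2 (1.94%). There the inducible genes had a median of 0.09, and Psme2 had the lowest value, −0.53 ± 0.19 (adjusted p 0.339), with all 3 DC 22 h libraries below the 3 of DC 8 h (6.99% of all genes were lower without overlap). That median was −0.04 without DC 8 h replicate 1, 0.19 without DC 8 h replicate 2, 0.00 (−0.001) without DC 22 h replicate 2 and 0.15 without both replicates 2. Of the 41 others 15 lay above 0, against 50.2% of all genes. This count moved with single libraries, to 33 without DC 8 h replicate 2, to 2 without DC 22 h replicate 2 and to 27 without DC 22 h replicate 3, and was 13 without both replicates 2. Same-numbered DC libraries deviated together in all 3 pairs, but replicates 1 and 3 did so across numbers too (correlations of 0.164 and 0.163). The numbers are thus not shown to pair them. A fit of the 6 DC libraries with the replicate number as a block also called 0 of 47, against 1.63% of all genes, with 4 at an unadjusted p under 0.05 (15.9% of all genes). In that fit Psme2 was at −0.52 ± 0.12 (adjusted p 0.0654, edgeR) and Psma4, lower at 22 h in 3 of 3 pairs, at −0.28 ± 0.12 (adjusted p 0.281).

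**Figure D5:**
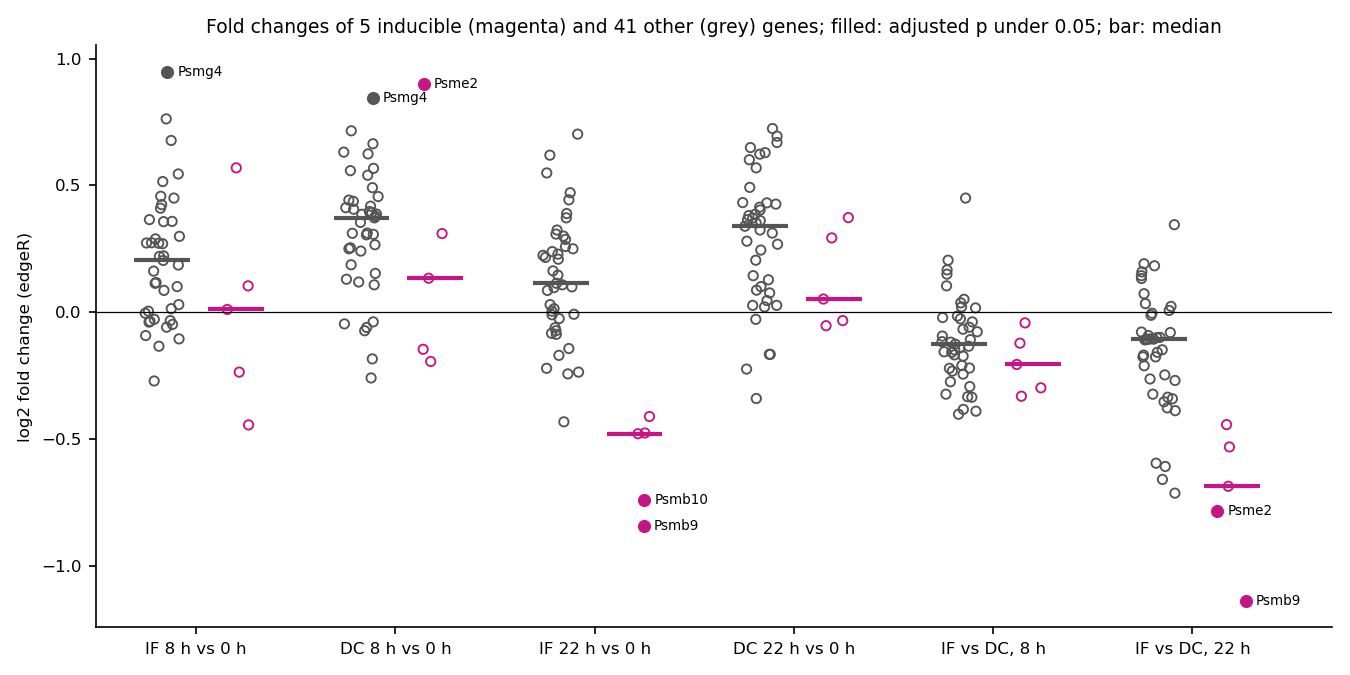
edgeR log2 fold changes of the 5 inducible genes (magenta) and 41 other proteasome genes (grey) in 6 comparisons, with filled points for adjusted p under 0.05 and bars for medians. The inducible genes lie together below 0 at IF 22 h against 0 h (median −0.48) and against DC 22 h (median −0.69), apart from most grey points, and the medians of the grey points against 0 h are 0.11 to 0.37.

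Genes that work with the proteasome and fall outside the name rule were counted as well, 24 tested of 26 in the tables. Against 0 h edgeR called 1 higher and 1 lower with IF at 8 h and 0 higher and 4 lower with IF at 22 h. With DC it called 1 lower at 8 h, and 1 higher and 4 lower at 22 h. Over all genes 7.76% and 6.08% were called with IF and 6.82% and 7.76% with DC. With IF 22 h replicate 1 alone the median of the list at IF 22 h was 0.03 (26 genes tested). Without replicates 2 of the DC groups 1 rose and 3 fell at DC 22 h, against 6.29% of all genes called in that fit. Rps27a, which encodes ubiquitin fused to a ribosomal protein, fell by 0.55 ± 0.13 at IF 22 h and by 0.69 ± 0.13 at DC 22 h. Zfand2a, a stress-induced proteasome-binding gene, fell by 1.13 ± 0.30 at IF 22 h and by 1.31 ± 0.30 at DC 22 h (a call lost without replicates 2 of the DC groups, adjusted p 0.0548), and Ubqln2, a ubiquitin shuttle, by 1.15 ± 0.29 at IF 22 h. Ubqln4 rose at IF 8 h (1.01 ± 0.28, a call lost without IF 22 h replicates 2 and 3). Uchl5, a deubiquitinase of the 19S regulator, rose at DC 22 h (1.12 ± 0.32, a call lost without replicates 2 of the DC groups, at 0.68, adjusted p 0.0794). The medians of the 24 genes were 0.04, 0.09, 0.07 and −0.06 in the 4 comparisons.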

How the data were processed

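The authors prepared libraries with an adapted CEL-seq protocol, which reads transcript 3′ ends, per the labels' protocols. The deposited values are raw whole-number counts for each gene. BWA and the mouse build mm10 are named per the submitters' processing notes, without a version. The counting program, the annotation and the use of strand and molecular identifiers are not given in the sources used here.

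Testing used edgeR 4.0.16 in R 4.3.3. The filter filterByExpr (minimum count 10, minimum total 15) left 10831 of 17493 genes, and TMM factors scaled the libraries. All 15 libraries entered 1 quasi-likelihood fit with a mean per group (5 groups). Each p is two-sided and was adjusted by the Benjamini-Hochberg method over every gene tested, with calls at an adjusted p under 0.05. The prior count behind log2 fold changes was 0.125. CPM are counts per 1000000 counts of the TMM-scaled total of kept genes. Count ratios use a pseudocount of 0.5 counts and exact permutation tests, adjusted over 10 tests. The fitting code was tested on simulated data for IF 22 h against 0 h. It called 0% of 100 genes changed by 0.5 log2 and 19% of 100 genes changed by 1 log2, with 1 false call. A gene that was not called is therefore not shown to be unchanged.

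Members, gene lists, markers and tests were chosen with earlier results of these data known. Genes named in full are the inducible ones and their counterparts, then the called Psm genes of smallest p and the highest and lowest in each comparison, then up to 5 called genes of each other list. Genes named for the 41 others by role, and the markers Zbtb46 and Fscn1, Tap1 and Gbp2 where set beside them, were in part chosen after their values were seen. Some called genes of the other lists are not reported here by name.

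Replicate numbers occur in every group. Same-numbered libraries deviated together in 4 of 30 pairs (correlation over 0.1, range −0.24 to 0.49), so the numbers were not taken to pair libraries in general. Differently numbered libraries were over 0.1 in 8 of 60 pairs. Between DC 8 h and DC 22 h all 3 same-numbered pairs were over 0.1 (0.16 to 0.49). Replicate 1 of DC 8 h with replicate 3 of DC 22 h (0.164), and replicate 3 with replicate 1 (0.163), were over 0.1 as well. Differently numbered DC pairs with a replicate 2 were at −0.39 to −0.235. The numbers are therefore not shown to pair the DC libraries, and a paired fit of these 6 libraries was added after seeing the data. Replicates differed by more than counting noise (chi-square per degree of freedom 9.52 to 103). Alternatives changed the scaling, the filter, the tool (DESeq2 1.42.0), the groups in the fit, the libraries and the replicate block. The fit without replicates 2 of DC 8 h and DC 22 h was added after seeing the data. Gene positions and shared exonic bases come from GENCODE vM21.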

Additional observations from a re-analysis of the deposited data

Results flagged for a closer look

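At 22 h 2 of the 47 tested Psm genes were called in the direct test of the difference between both stimuli, against 2.43% of all genes. With only these 2 groups in the fit neither was called, against 0.687% of all genes. Among the single libraries left out, Psme2 kept its call only without DC 22 h replicate 3. Psmb9 lost its call only without IF 22 h replicate 3. The difference between IF and DC in log2 fold change against the shared 0 h libraries was −1.14 for Psmb9 and −0.78 for Psme2 by edgeR, lower in all 3 IF libraries than in all 3 DC libraries for both genes.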

How the results depend on the processing

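Calls of Psm genes were few and moved with the processing, and the causes were not tested. With library size alone the counts were 4 at IF 8 h, 10 at DC 8 h, 17 at DC 22 h and 4 for IF against DC at 22 h, where 10.3%, 9.96%, 14.6% and 2.47% of all genes were called. Without a low-count filter they were 3, 4, 4 and 4, and 3 for IF at 22 h against 8 h (6.82%, 6.59%, 7.46%, 4.12% and 2.93% of all genes). Counts of 3 in place of 2 were also found at IF 22 h without that filter, for IF against DC at 22 h with at least 10 CPM, and at DC 8 h with DESeq2 (6.43%, 3.50% and 10.8%). With DESeq2 they were 2 at IF 8 h, 6 at IF 22 h, 3 at DC 22 h, 4 for IF against DC at 22 h and 3 for IF over time (11.7%, 9.84%, 11.7%, 5.20% and 3.38% of all genes). With only the groups compared they were 7 at IF 8 h, 6 at IF 22 h and 0 for IF against DC at 22 h (13.7%, 9.93% and 0.687%). With a mean of at least 10 CPM they were 2 at DC 22 h and 2 for IF over time (10.9% and 2.14%). Without replicates 2 of DC 8 h and DC 22 h they were 6 at both IF times, 1 at DC 8 h and 3 for IF over time (12.7%, 10.2%, 6.35% and 3.23%), an alternative chosen after seeing the data. Without IF 22 h replicates 2 and 3 they were 0 at IF 22 h, for IF against DC at 22 h and for IF over time (0.833%, 0.0673% and 0.00% of all genes), where the lone library is assumed to vary like the other groups, and the stimulated against unstimulated difference of Psme2 over Psme3 turned from −0.16 to 0.031. Leaving out single libraries gave counts of 0 to 1 and 0 to 2 with IF at 8 h and 22 h, 1 to 2 and 0 to 3 with DC at 8 h and 22 h, 0 to 2 for IF against DC at 22 h and 0 to 1 for IF over time. In the same order, the shares of all genes called were 3.75% to 5.13%, 2.53% to 8.49%, 3.61% to 5.94%, 4.06% to 8.81%, 0.805% to 6.81% and 0.215% to 4.85%. Leaving out single libraries also gave differences of −0.61 to −0.49 for Psmb8 over Psmb5 (stimulated against unstimulated), −0.84 to −0.48 for Psme1 over Psme3 and −0.96 to −0.66 for Psme2 over Psme3 (IF against DC). The replicate number as a block gave 3 calls for IF against DC at 22 h in place of 2 (2.26% of all genes), with Psmb10 passing at −0.71 (adjusted p 0.0351), and changed no other count of called Psm genes, nor did the paired fit of the 6 DC libraries. Of the 15 libraries 7 correlated best with a library of their own number. In all alternatives run the 5 inducible genes stayed below 0 at IF 22 h against 0 h and against DC 22 h. Amplified reads need not be independent molecules, and Psmc3ip, Psma8 and Psmb11 were thinly counted. Which genes depth limits was not tested.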
